A study of Mus musculus with 6 samples.

Results

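The genes examined here encode the proteins of the skeletal muscle sarcomere and of the membranes that trigger it, and 34 of them were taken by symbol from the 33924 genes in the deposited table of an RNA-seq experiment on mouse RPE/choroid, the retinal pigment epithelium with the vascular layer beneath it. All 34 symbols were found, and each had a mean normalized count of at least 10, a level that 18479 genes in the table reached. They were sorted by textbook knowledge into 12 fast forms, 7 slow forms, 3 developmental forms, 1 myosin of extraocular muscle and 11 genes that fast and slow fibers share. The study asked how the transcriptome of RPE/choroid changes with age. It sequenced poly(A)-selected RNA, which the paper describes as rRNA-depleted too. The RNA came from 6 C57BL/6J mice, 3 in each of a young and an aged group, each sample holding the tissue of both eyes. Young mice are labelled as 1 to 2 months old. The paper gives the young group a somewhat older age range than these labels do. The sample titles put the aged mice at 20 to 24 months, while their age field reads 22 to 24 months. All mice are labelled male with no other genotype or treatment, whereas the paper describes animals of both sexes. Eye muscles were cut away from the eyecup under a microscope before the pigmented layer was scraped off.

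The table holds no value for a single library. Each level below is the authors' mean normalized count over the young and aged libraries together, and it carries no SD between mice and no n of its own. The authors describe quantifying TPM, a measure already divided by transcript length, before turning it into normalized counts. Whether levels should be divided by length again is uncertain, so an order of genes that holds only per kb of transcript is not settled. The difference between young and aged mice was therefore not tested, the order of 2 genes with near levels cannot be set against a spread, and a level that came from 1 library cannot be told apart from one that all libraries share. In bulk tissue, fewer muscle fibers and less RNA per fiber cannot be told apart either.

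A sarcomere is the contractile unit of striated muscle, in which thick filaments of myosin pull on thin filaments of actin between neighbouring Z-discs. Calcium released from the sarcoplasmic reticulum binds troponin on the thin filament and frees actin for myosin. Fast and slow fibers build the same machine from different gene copies, and embryonic and perinatal copies are replaced as most muscles mature. The extraocular muscles, which turn the eye, are known for keeping developmental myosins in the adult and for a myosin of their own, Myh13.

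The myosin heavy chain genes are so alike in sequence that a short read can match more than 1 of them. This may bear on the myosin levels below. Myh3 and Myh13 had the largest share of sequence found in no other gene. A low gene such as Myh13 could still be affected by few reads of a far higher gene, which was not tested. The authors' paired reads were longer than the stretches and words compared here, and how they were assigned was not examined. The coding sequence of Myh4, the heavy chain of the fastest fibers, was 90.3% identical to that of Myh1, 88.2% to Myh2, 88.1% to Myh8, 80.8% to Myh3, 79.7% to Myh13 and 77.8% to Myh7. The stretch of 90 coding bases where Myh1, Myh2 and Myh8 departed least from Myh4 is given here, 5′ to 3′, with capitals at each base that differs from Myh4.
Myh4, Myh1, Myh2 and Myh8: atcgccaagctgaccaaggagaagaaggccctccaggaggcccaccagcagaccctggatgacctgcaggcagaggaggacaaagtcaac
Myh13: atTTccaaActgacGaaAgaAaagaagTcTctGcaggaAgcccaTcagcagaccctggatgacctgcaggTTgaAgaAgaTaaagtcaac
Myh3: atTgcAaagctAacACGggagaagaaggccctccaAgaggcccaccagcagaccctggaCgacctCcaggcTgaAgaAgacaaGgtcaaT
Myh7: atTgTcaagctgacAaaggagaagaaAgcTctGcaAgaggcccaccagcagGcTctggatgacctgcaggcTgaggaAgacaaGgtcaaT
Among Myh4, Myh1, Myh2 and Myh8, 0 of the 90 bases differed. Myh13 differed from them at 16 bases, Myh3 at 14 and Myh7 at 13. In GRCm38 the stretch lies on the plus strand at chr11:67252224-67252313 in exon 23 of Myh4, at chr11:67213605-67213694 in exon 24 of Myh1, at chr11:67188704-67188793 in exon 24 of Myh2 and at chr11:67297488-67297577 in exon 24 of Myh8.

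The stretch where the same genes departed most from Myh4 shows where they are easiest to tell apart, again with capitals at the bases that differ.
Myh4: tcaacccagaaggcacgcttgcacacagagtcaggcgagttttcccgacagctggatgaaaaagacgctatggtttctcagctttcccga
Myh1: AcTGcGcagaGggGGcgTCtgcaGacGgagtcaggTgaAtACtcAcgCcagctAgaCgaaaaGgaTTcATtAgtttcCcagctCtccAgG
Myh2: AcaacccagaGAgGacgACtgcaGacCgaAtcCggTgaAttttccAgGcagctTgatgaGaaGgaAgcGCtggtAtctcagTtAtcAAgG
Myh8: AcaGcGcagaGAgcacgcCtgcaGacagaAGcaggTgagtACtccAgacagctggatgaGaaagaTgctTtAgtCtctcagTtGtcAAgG
Here Myh1 differed from Myh4 at 29 of 90 bases, Myh2 at 26 and Myh8 at 23. The stretch spans the junction of exons 27 and 28 of Myh4, at chr11:67254093-67254513 in GRCm38. Over whole transcripts, 81.1% of the 50-base words of Myh4 were found in no other gene on the same strand, against 73.3% for Myh1, 73.1% for Myh2, 78.6% for Myh8, 77.8% for Myh7, 91.6% for Myh13 and 95.2% for Myh3. The largest overlap among these 7 genes was between Myh1 and Myh2, which shared 19.7% of their words. Most of what Myh7 shared was with Myh6, the heart's fast myosin, at 22.2% of its words. Of all 34 members, 27 had at least 95% of their words to themselves on the same strand.

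**Figure D1:**
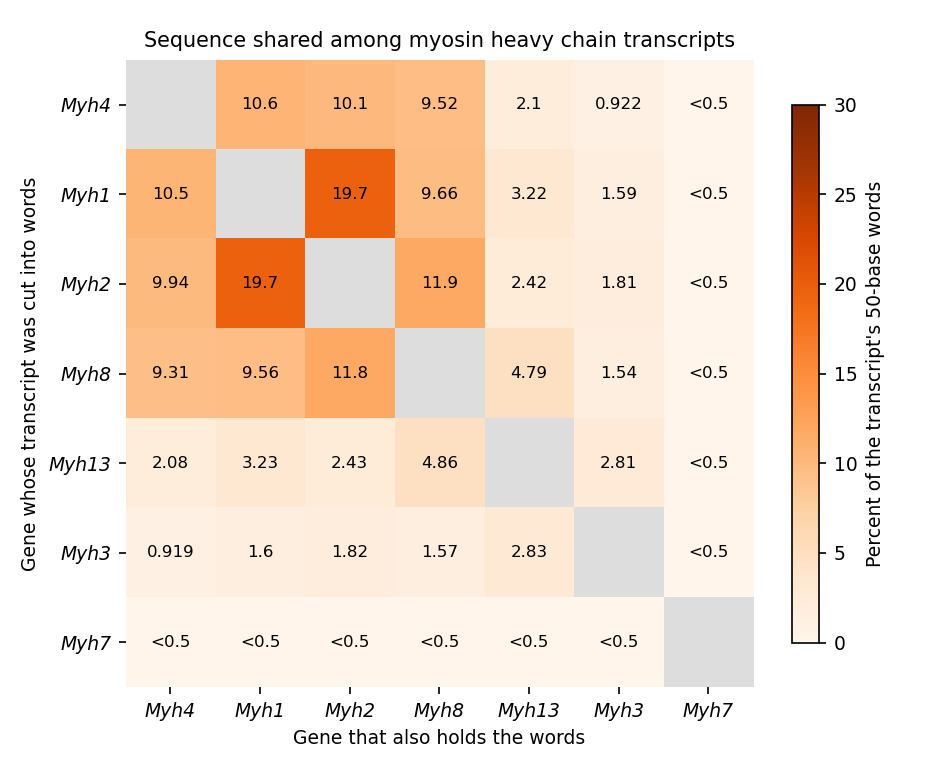
Percent of each myosin heavy chain transcript's 50-base words (row) that also occur, on the same strand, in the transcripts of another heavy chain gene (column). Myh1 and Myh2 share 19.7%, the pairs among Myh4, Myh1, Myh2 and Myh8 share from 9.31% upward, and Myh7 shares less than 0.5% with each of the other 6.

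The 34 members together held 1.01% of all normalized counts. Fast forms made up 0.671% of all counts, shared genes 0.297%, slow forms 0.0269%, developmental forms 0.0114% and Myh13 0.000143%. Of the slow forms, Mybpc1 alone held 0.0160% of all counts. Fast forms thus outweighed slow ones in summed count. The median of the mean normalized counts was 20143 over the 12 fast genes and 759 over the 7 slow genes, and the median level per kb of transcript was 5851 over the fast and 661 over the slow genes. The median count over all 25517 genes with a mean above 0 was 211. Of the members, 11 had a mean of at least 10000, a level that 616 genes in the table reached. Counting only genes with a mean above 0, 16 members stood among the top 5%, which is 1275 genes. At the other end, Myl3, Myh13 and Tnnc2 were the 3 members under a mean of 100.

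**Figure D2:**
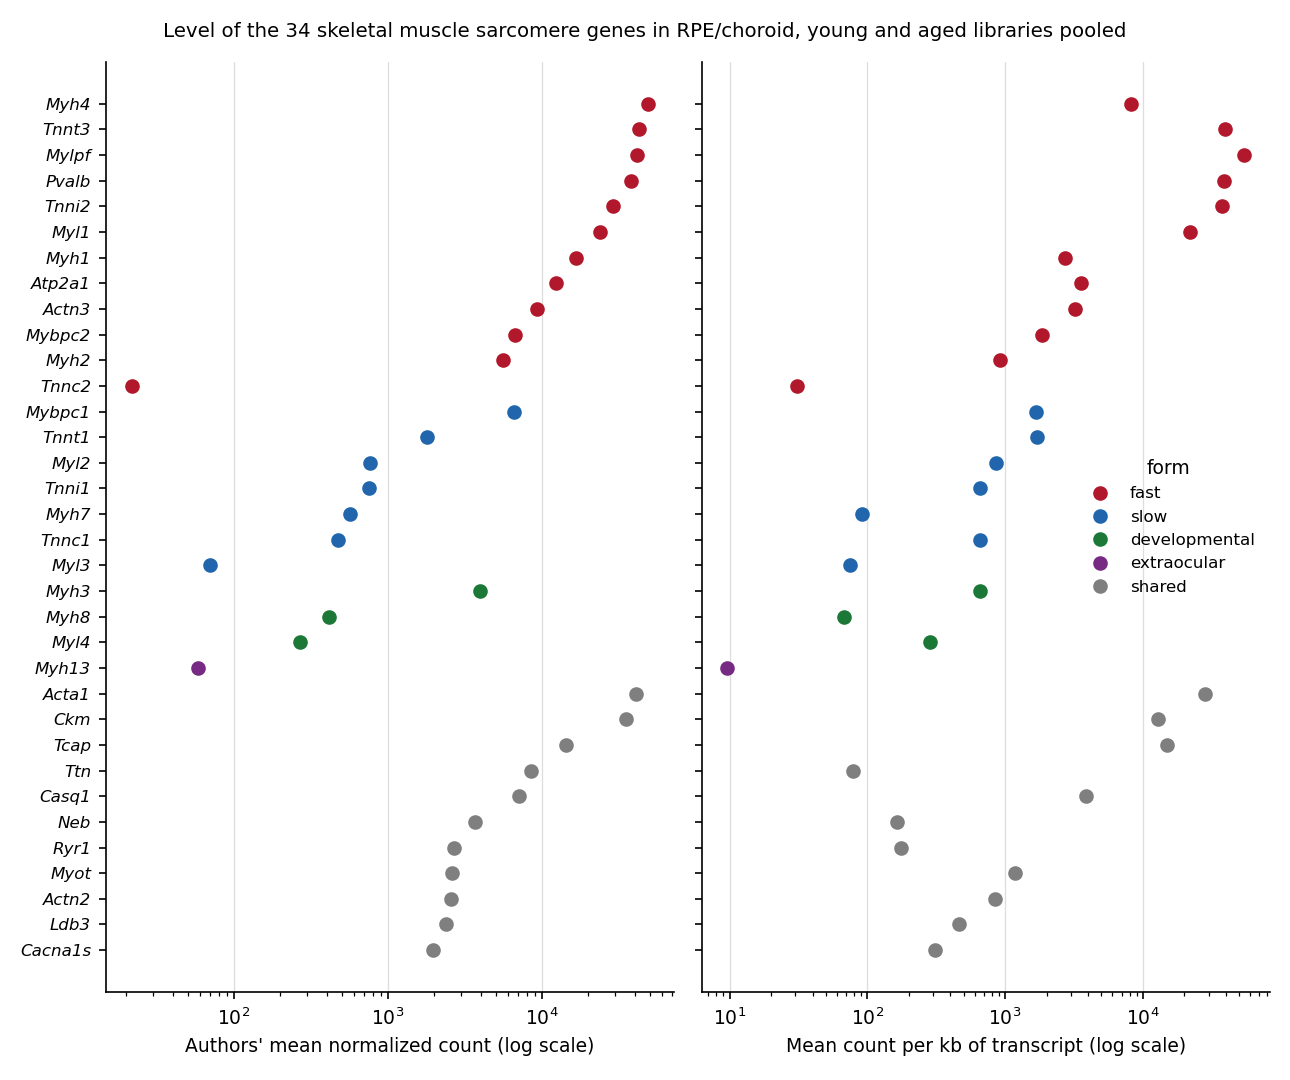
The authors' mean normalized count (left) and the same mean per kb of transcript (right) of the 34 members, both on log scales, coloured by form. Young and aged libraries are pooled in each point, so there are no error bars. Of the fast forms 11 lie at or above 5603 and only Tnnc2 lies below, at 21.6.

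Among the myosin heavy chains, the motor proteins of the thick filament, Myh4 was highest with a mean normalized count of 48944, which was rank 52 of all genes. Myh1, the heavy chain of intermediate fast fibers, had 16601, and Myh2, that of the slower and more oxidative fast fibers, had 5603. Because these transcripts are close in length, their levels per kb of transcript keep the same spacing: Myh4 stood 2.98-fold above Myh1, and Myh1 stood 2.96-fold above Myh2. Per kb, the 3 fast genes made up 93.4% of the heavy chain level, with 64.5% from Myh4, 21.6% from Myh1 and 7.30% from Myh2.

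Myh3, the embryonic heavy chain, came next. It had a mean of 3981 and 5.23% of the heavy chain level per kb. Myh8, the perinatal heavy chain, had 417 and 0.538%, so that Myh3 stood 9.73-fold above Myh8. Myh7, the heavy chain of slow fibers and of the heart's ventricles, had 570 and 0.725%. Per kb, slow Myh7 thus lay between the developmental forms, 7.22-fold below Myh3 and above Myh8. Myh13, the heavy chain named for extraocular muscle, had a mean of 58.4 and 9.63 per kb, which was the lowest per-kb level of the 34 members and 845-fold below Myh4. Except for Myh7 on chromosome 14, the heavy chain genes lie in 1 cluster of 293287 bases at chr11:67078300-67371586, in the order Myh3, Myh2, Myh1, Myh4, Myh8 and Myh13. Myh4, the highest gene of the cluster, has 13453 bases between it and Myh1 on the one side and 16677 bases between it and Myh8, the lowest but for Myh13, on the other.

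The myosin light chains, which stiffen and tune the lever arm of the heavy chain, were also mostly fast. Mylpf, the fast regulatory light chain, had a mean of 41426 and, at 54081 per kb, the highest level per length of all members. Its slow counterpart Myl2, which is also the ventricular form, had 764, so that Mylpf made up 98.4% of the regulatory light chain level per kb. Myl1, the fast essential light chain, had 23685. The atrial and embryonic form Myl4 had 267 and the slow and ventricular form Myl3 had 70.2. Myl1 made up 98.4% of the essential light chain level per kb, Myl4 1.27% and Myl3 0.337%. The developmental form Myl4 stood above the slow form Myl3 by 3.78-fold per kb. Of the words of Myl1, 23.4% also occur in the pseudogene Mylf-ps, so the count of Myl1 may be less certain than that of Mylpf, whose words were all its own.

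Troponin is the calcium switch of the thin filament and has 3 subunits: troponin T ties it to tropomyosin, troponin I blocks actin at rest and troponin C binds calcium. Tnnt3, the fast troponin T, had a mean of 42490 and the slow Tnnt1 had 1805, so the fast form made up 95.9% of troponin T per kb. Tnni2, the fast troponin I, had 28772 and the slow Tnni1 had 759, and the fast form made up 98.3% of troponin I per kb. Tnnt3 and Tnni2 are neighbours on chromosome 7, with 54425 bases between them, and were close in level per kb at 39379 and 37464.

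Troponin C went the other way in share, but both of its genes were low, far below Tnnt3 at 42490 and Tnni2 at 28772. Its split therefore does not show which troponin C the muscle fibers used. Tnnc2, the fast troponin C, had a mean of 21.6, which was the lowest mean of all 34 members and rank 17152 of all genes. Tnnc1, the form of slow and cardiac muscle, had 476, close per kb to slow troponin I: Tnnc1 stood at 661 per kb and Tnni1 at 660 per kb. By mean count they were less close, with Tnni1 1.59-fold above Tnnc1. Fast troponin C thus made up 4.47% of the troponin C level per kb, where the fast form made up over 95% of troponins T and I, and Tnni2 stood 1213-fold above Tnnc2 per kb. Over all 3 subunits, the fast share was 96.2% per kb.

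**Figure D3:**
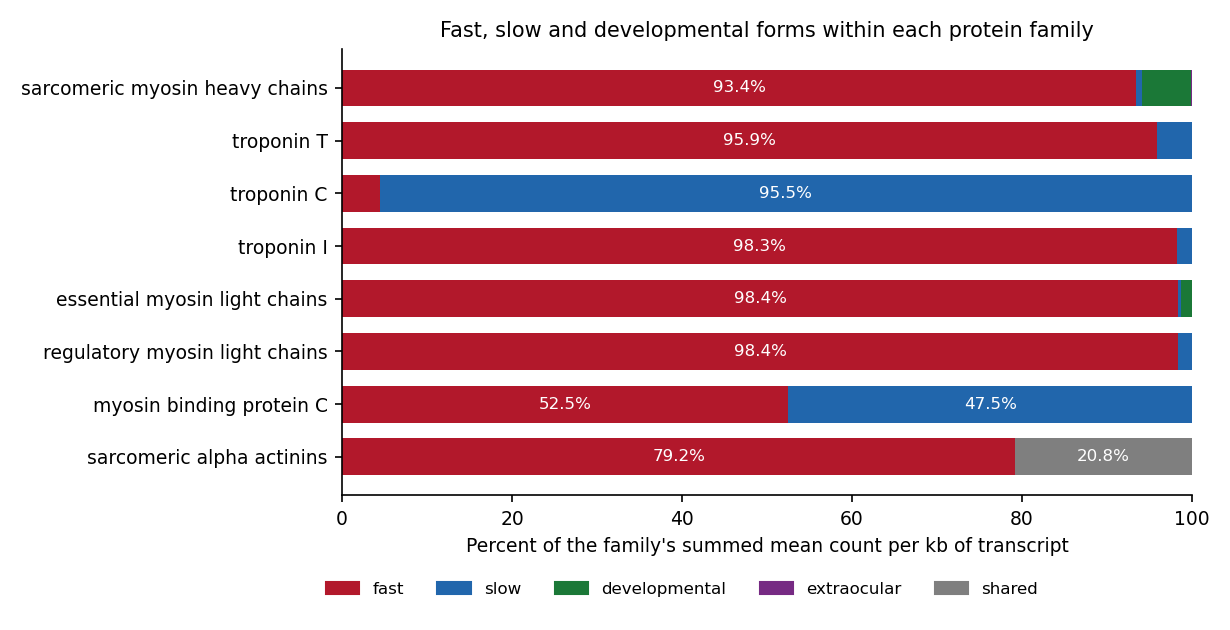
Percent of each family's summed mean count per kb of transcript that came from its fast (red), slow (blue), developmental (green), extraocular (purple) and shared (gray) genes. Fast forms hold from 93.4% to 98.4% of the myosin heavy chains, the light chains and troponins T and I, but 52.5% of myosin binding protein C, 79.2% of the alpha actinins and 4.47% of troponin C. Myh13 is too small a share (0.0763%) to be seen.

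The 2 troponin C genes are easy to tell apart by sequence, as the 90 coding bases in which they are most alike show, with capitals at the bases where Tnnc1 differs.
Tnnc2: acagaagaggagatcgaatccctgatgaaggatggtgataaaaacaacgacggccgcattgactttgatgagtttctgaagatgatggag
Tnnc1: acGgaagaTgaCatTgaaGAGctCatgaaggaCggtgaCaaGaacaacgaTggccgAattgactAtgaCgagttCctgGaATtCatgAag
They differed there at 21 of 90 bases, and their coding sequences were 70.4% identical. The stretch spans the junction of exons 5 and 6 of Tnnc2 on the minus strand at chr2:164777314-164777541 in GRCm38. What Tnnc2 does share is its place in the genome: it overlaps Ube2c, a ubiquitin-conjugating enzyme gene of cell division on the plus strand, over 1662 bases at chr2:164777161-164778822. In the GENCODE annotation a long last exon of Ube2c runs through exons 2 to 6 of Tnnc2. On the same strand 100% of the words of Tnnc2 were its own, but 55.0% occurred on the opposite strand in Ube2c transcripts, and 45.0% were its own on either strand. Words that cross a splice junction of Tnnc2 count as its own, so these percents understate the overlap. The shared words run from base 79 to base 674 of its 700 bases. Ube2c itself had a mean of 27.9, below every member but Tnnc2. The kit that the paper names for its rRNA-depleted RNA keeps strand. The paper describes the poly(A)-selected RNA as rRNA-depleted too. Whether the poly(A)-selected libraries were made with that kit, and whether the authors' counting used strand, is not given in the sources used here. Whether the overlap plays a part in the level listed for Tnnc2 was not tested.

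**Figure D4:**
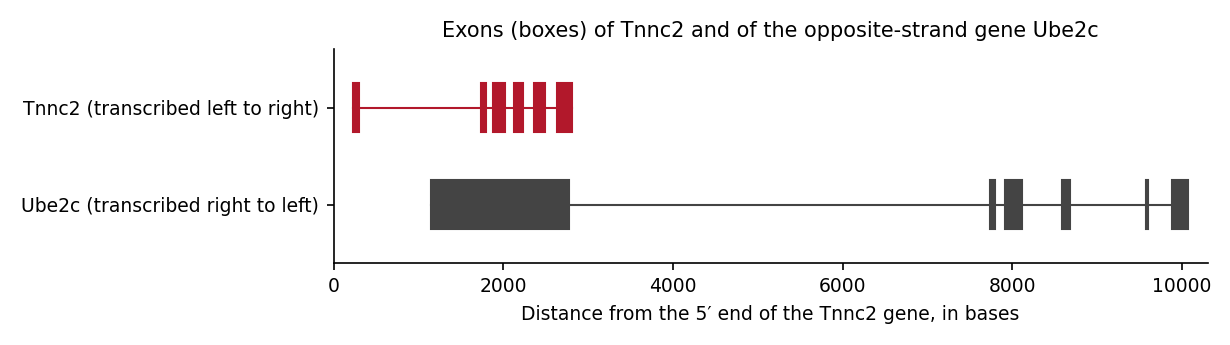
Exons of the longest protein-coding transcripts of Tnnc2 (top) and Ube2c (bottom), as distance in bases from the 5′ end of the Tnnc2 gene. Exon 1 of Tnnc2 lies outside Ube2c, and its other 5 exons lie within or across the edge of the long last exon of Ube2c, which is transcribed the opposite way.

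Myosin binding protein C, which links thick filaments and slows their sliding, was the family most evenly split. Mybpc2, the form named fast, had a mean of 6673 and Mybpc1, the form named slow, had 6549, or 52.5% and 47.5% of the family per kb. The split rests on these names, and whether Mybpc1 came from slow fibers was not tested. Mybpc1 was the highest of the 7 slow forms in mean count, 3.63-fold above Tnnt1, but per kb Tnnt1 was slightly above it, at 1704 against 1670. The alpha actinins crosslink actin at the Z-disc. Actn3, which is made in fast fibers, had 9354, and Actn2, made in all striated fibers, had 2561, or 79.2% and 20.8% of that pair per kb.

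The thin filament and the giant proteins that span the sarcomere are shared by fast and slow fibers. Acta1, skeletal muscle actin, had a mean of 40522, rank 73 of all genes, and 28023 per kb. Tcap, which caps titin at the Z-disc, had a mean of 14276 and 15059 per kb. Ttn, the giant titin that spans from Z-disc to M-band, had 8461, and Neb, nebulin, which lies along the thin filament, had 3689. These giants ranked differently by length: Ttn has a transcript of 106824 bases and stood at 79.2 per kb, and Neb has 22489 bases and stood at 164 per kb. Neb was thus 2.07-fold above Ttn per kb, but its mean count was lower. Which of them was higher depends on whether the listed values already correct for length, which is uncertain. Myot and Ldb3, which hold the Z-disc together, had means of 2625 and 2378, or 1188 and 465 per kb.

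The calcium and energy machinery of the fiber was present as well. Atp2a1, the calcium pump of the fast fiber's sarcoplasmic reticulum, had a mean of 12398 and 3566 per kb, and Pvalb, parvalbumin, which soaks up calcium in fast fibers and also marks some neurons of the retina, had a mean of 38066 and 38962 per kb. Casq1, which stores calcium in the reticulum, had a mean of 7129 and 3860 per kb, so that pump and store lay close per length. The release channel Ryr1 had a mean of 2699 and 176 per kb. The voltage sensor Cacna1s, which opens it, had 1948, the lowest mean of the 11 shared genes, and 312 per kb. Ckm, the creatine kinase that recharges ATP at the sarcomere, had a mean of 35123 and 12809 per kb. For 5 of these 6 genes, all but Pvalb, transcripts on the opposite strand share sequence. They hold 18.2% of the words of Atp2a1 (in Rabep2), 16.4% of those of Cacna1s (in Gm37759) and 11.7% of those of Ckm (in A930016O22Rik). For Casq1 the share was 3.34% (Gm17224) and for Ryr1 3.16% (Gm26604).

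Other muscle genes were measured along with the members. All 29 genes of a list of further skeletal muscle structure had a mean normalized count of at least 10, with a median of 1575, from 22.8 for Myoz3 to 45543 for the tropomyosin Tpm1, and its highest genes were Tpm1, Tpm2 and Des. Tropomyosins and desmin are also made in smooth muscle. All 17 genes of excitation and calcium handling had a mean of at least 10, with a median of 673 and Srl, Asph and Trdn highest. In the table as a whole, 18479 of 33924 genes reached a mean of 10. Forms made mainly in the heart were lower: the 8 cardiac genes had a median of 36.5, and Nppb, Mybpc3 and Nppa were under 10. The highest of them was Actc1, the cardiac actin, with a mean of 1258 and 854 per kb, where Acta1 had 28023 per kb.

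Markers of the tissue and of its neighbours place these levels. The 12 RPE genes had a median mean count of 76797, with Ttr, Rgr and Pmel highest and the chloride channel gene Best1 lowest at 81.8. The 10 rod photoreceptor genes had a median of 22770. The 10 smooth muscle genes had a median of 2656, with Myl9, Acta2 and Tagln highest, and the 8 endothelial genes one of 4018, with Emcn, Kdr and Vwf highest. The median over the 12 fast sarcomere genes, 20143, was thus near that of the rod genes and above those of smooth muscle and endothelium. Per kb, the medians were 31084 over the RPE genes, 9860 over the rod genes, 5851 over the fast sarcomere genes, 913 over the endothelial and 391 over the smooth muscle genes, so the fast genes kept their place between rods and endothelium. These lists differ in the number and choice of genes, so their medians were only described.

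**Figure D5:**
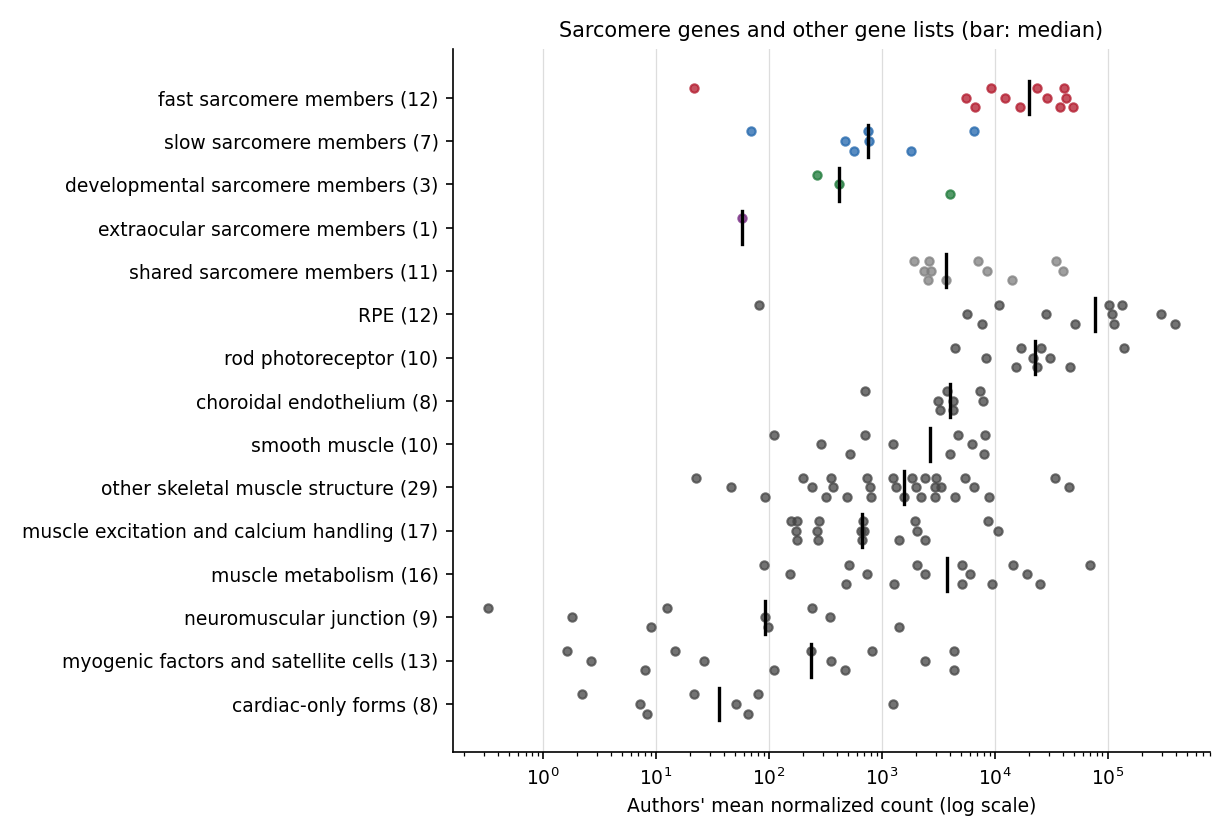
The authors' mean normalized count of each gene, on a log scale, for the members by form (coloured) and for 10 other gene lists (dark gray), with the number of genes in brackets and the median as a black bar. Except for Tnnc2, the fast members lie in the range of the rod photoreceptor genes.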

How the data were processed

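The authors sequenced rRNA-depleted and poly(A)-selected RNA of RPE/choroid as read pairs, with 3 mice in each age group. As the authors state, reads were trimmed with BBDuk, mapped with STAR to the Ensembl annotation of GRCm38, quantified with Sailfish as TPM and transformed into normalized counts by total count, and ages were compared with DESeq2. The deposited signal is the authors' mean normalized count per gene over both age groups, and the depth of single libraries is unknown. The remaining deposited columns hold the authors' own comparison (fold changes with their errors, test statistics and p-values) and were not used. The planned test of age needed values per library and was not run.

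Levels per kb used the longest protein-coding transcript in GENCODE M21 (GRCm38), whose lengths may differ from those of the authors' annotation release. Coding lengths came from the same annotation, in place of the RefSeq proteins that were planned. Own sequence is the percent of a transcript's 50-base words in no other gene, tested on simulated transcripts. Coding sequences were aligned with Biopython 1.88. The 90-base stretches were the codon-aligned, gap-free windows with the fewest and the most bases differing from Myh4 in Myh1, Myh2 and Myh8 together, and the fewest between the troponins C. Python 3.11.15, pandas 2.3.3, numpy 2.4.6 and matplotlib 3.10.9 were used. All 34 members are named, and of other lists the highest 3 genes and those under a mean of 10, except for some genes that are not reported here. A minimum mean of 10 and the top 5% were used as limits. Members and lists were chosen with earlier results of these data known. Klhl41, Klhl40, Mrln, Mymk and Mymx were matched by their older names. Alternatives changed the length, the denominator and the genes ranked.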

Additional observations from a re-analysis of the deposited data

How the results depend on the processing

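No SD between mice and no replicate could be used, so no value here has a measured error, and the age comparison was not run, with or without each replicate, another scaling, a filter on low values or a replicate block. No paired analysis was possible because only means over both age groups were used. Without the mitochondrially encoded genes, the members held 1.03% of all counts, and over genes with a mean of at least 10 they held 1.01%. The fast share of the myosin heavy chains was 94.3% per kb of own sequence, and 93.4% by coding length or with no division by length. The fast share of the troponins was 95.8% by coding length and 95.9% with no division by length. With troponin C left out, an alternative chosen after seeing the data, it was 97.0%. The number of members in the top 5%, which was 16, was 13 over genes with a mean of at least 10 and 12 when genes were ranked per kb. Whether the deposited values grow with transcript length is uncertain. The median count over protein-coding genes rose from 685 in the shortest of 10 length groups to 1052 in the longest. The median transcript length of these 2 groups was 968 and 8227 bases. The rise was not steady, with 811 in the second group and 685 in the third. Both scales are given because of this uncertainty.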

Other observations

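Genes of muscle metabolism were well represented. All 16 had a mean normalized count of at least 10, as did 18479 genes in the table. The median over the 16 was 3763, against 3689 over the 11 shared members. Per kb of transcript, the medians were 3566 and 850. The highest were the mitochondrial nucleotide carrier Slc25a4, at 70074, which many tissues make, the muscle enolase Eno3 and the oxygen store Mb, and the lowest was Fbp2.

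Genes of the neuromuscular junction and of muscle precursors were lower. The 9 junction genes had a median of 91.9, led by Rapsn at 1415, which clusters acetylcholine receptors, while Colq, Chrnd and Chrng were under 10. Chrng, the receptor subunit of fetal muscle, had a mean of 0.323. The 13 myogenic genes had a median of 235, with Mef2c and Mef2a, which are also made outside muscle, among the highest. The satellite cell marker Pax7 had a mean of 7.93, and the fusion genes Mymx and Mymk had 2.65 and 1.62.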
